A study of Rattus norvegicus with 48 samples.

Results

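The heme oxygenase and iron handling genes described here were 10 rat genes taken by symbol from the 30211 genes of the expression table. They were Hmox1, Hmox2, Blvra, Blvrb, Fth1, Ftl1, Slc40a1, Slc11a2, Tfrc and Ireb2, each followed through all 48 RNA-seq libraries. The cultures were primary mixed cortical cultures from 18-day Sprague-Dawley rat fetuses, used at 21 days in vitro and labelled as neurons. The study asked how the HIV-1 protein Tat and cocaine, separately and together, alter the cultures, and whether 4-octyl itaconate and other small molecules modify that response. There were 16 groups of 3 libraries. The Control cultures received none of the agents. Tat was given at 6 ng/mL for 48 h and cocaine at 25 µM for 24 h, singly (Tat, Cocaine) or together (Tat-Cocaine). Each of 4 small molecules was given alone, with Tat and with Tat-Cocaine: 4-octyl itaconate (4OI) at 250 µM, Amlexanox at 25 µM, Tazemetostat at 3 µM and Senicapoc at 1 µM. No group combined cocaine with a small molecule in the absence of Tat. 4OI is a cell-permeable ester of the macrophage metabolite itaconate, Amlexanox inhibits the kinases TBK1 and IKKε, Tazemetostat inhibits the histone methyltransferase EZH2, and Senicapoc blocks a calcium-activated potassium channel. The labels do not say whether the 3 libraries of a group came from separate cultures or animals, so the p-values below measure the spread between these libraries.

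Heme oxygenases open the heme ring and release ferrous iron, carbon monoxide and biliverdin, which biliverdin reductases turn into bilirubin. Free iron is stored in ferritin, leaves the cell through ferroportin (Slc40a1), and enters it through the transferrin receptor (Tfrc) and the divalent metal transporter Slc11a2. Iron regulatory proteins, of which Ireb2 encodes one, bind stem-loops in ferritin and transferrin receptor messages. Hmox1, Blvrb and the ferritin genes are known targets of the transcription factor NRF2, which itaconate esters activate by modifying its inhibitor KEAP1. In the brain, microglia and other macrophages carry out much of the heme and iron recycling.

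Levels are CPM, the reads on a gene as a share of the library's reads, scaled by the authors between libraries, and the libraries held 17.5 to 29.1 M reads on genes. Differences are log2 fold changes on the log2(CPM + 0.5) scale, fitted with limma over all 15890 genes that reached 0.5 CPM in at least 3 libraries. A difference was called at a Benjamini-Hochberg adjusted p below 0.05. Libraries of the same group correlated at r = 0.987 to 0.999. Besides neuronal markers (summed level 792 to 3448 CPM over the 48 libraries), the cultures expressed markers of astrocytes (5137 to 12140 CPM), microglia (392 to 4214 CPM), oligodendrocytes (157 to 24622 CPM), oligodendrocyte precursors (213 to 664 CPM) and border macrophages (30.4 to 804 CPM). Fibroblast markers summed to 33.9 to 300 CPM and endothelial markers to 1.34 to 8.56 CPM, with Cldn5 under 0.5 CPM in every library. Erythroid markers summed to 0.483 to 1.83 CPM, with Hba-a1, Hba-a2 and Alas2 under 0.5 CPM in every library. In such bulk samples, fewer cells of a type and less RNA per cell cannot be told apart. The third Cocaine library stood apart, with Mbp, a myelin gene, at 9293 CPM against 259 and 356 CPM in the other Cocaine libraries. No listed gene was called in Cocaine against Control with or without it.

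Of the 10 genes, 9 passed the filter on low values. Slc40a1, the only known cellular iron exporter, did not: it was at 0 in 34 of 48 libraries and had 10 reads in all of them together. Its highest value was 0.0806 CPM, under the 0.10 to 0.175 CPM that 3 reads are worth in these libraries, so no comparison was made for it. These are the reads counted under this symbol, and whether reads of the gene were assigned elsewhere was not tested. Ftl1 was near the lower limit as well, with 6.5 to 41 reads per library.

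4OI gave the highest levels of 3 of the genes. Hmox1, Blvrb and Fth1 were each higher in all 9 libraries that had received 4OI than in any of the 39 that had not, whether or not Tat or cocaine was present. Ftl1 rose with 4OI as well, from a very low level, while Hmox2, Blvra and Ireb2 did not pass the test over the 3 backgrounds. Tat gave another pattern, with higher Slc11a2 and lower Tfrc. Cocaine against Control changed none of the 9 tested genes. With Amlexanox and Senicapoc none of them was called in any single background, where 0% to 11.4% of all genes were called. Tazemetostat called 4 in Tat-Cocaine cultures, where 28.7% of all genes were called, and none without the first Tat-Cocaine or the second Tat-Cocaine-Tazemetostat library.

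Hmox1 encodes the stress-inducible heme oxygenase. In Control cultures its level was 135, 201 and 145 CPM, and in 4OI cultures 793, 1543 and 1078 CPM. In Tat cultures it was 194, 291 and 272 CPM, and in Tat-4OI cultures 1806, 955 and 1474 CPM. In Tat-Cocaine cultures it was 172, 214 and 237 CPM, and in Tat-Cocaine-4OI cultures 1348, 845 and 1034 CPM. The 4OI libraries lay above their matched libraries without overlap in all 3 backgrounds. Hmox1 was 6.93-fold higher in 4OI than in Control (log2 2.79, SE 0.231, adjusted p = 8.27e-11, limma). It was 5.47-fold higher in Tat-4OI than in Tat (log2 2.45, adjusted p = 2.47e-09) and with both Tat and cocaine present it was 5.12-fold higher (log2 2.36, adjusted p = 6.69e-09). In untreated cultures 4OI called 4 of the 9 tested genes, all higher, against 3.15% of all genes (2.47% higher and 0.686% lower). In Tat cultures it called 7, of which 6 were higher, against 15.6% of all genes (6.10% higher and 9.48% lower). In Tat-Cocaine cultures it called 4, all higher, against 7.36% of all genes (4.07% higher and 3.29% lower).

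**Figure D1:**
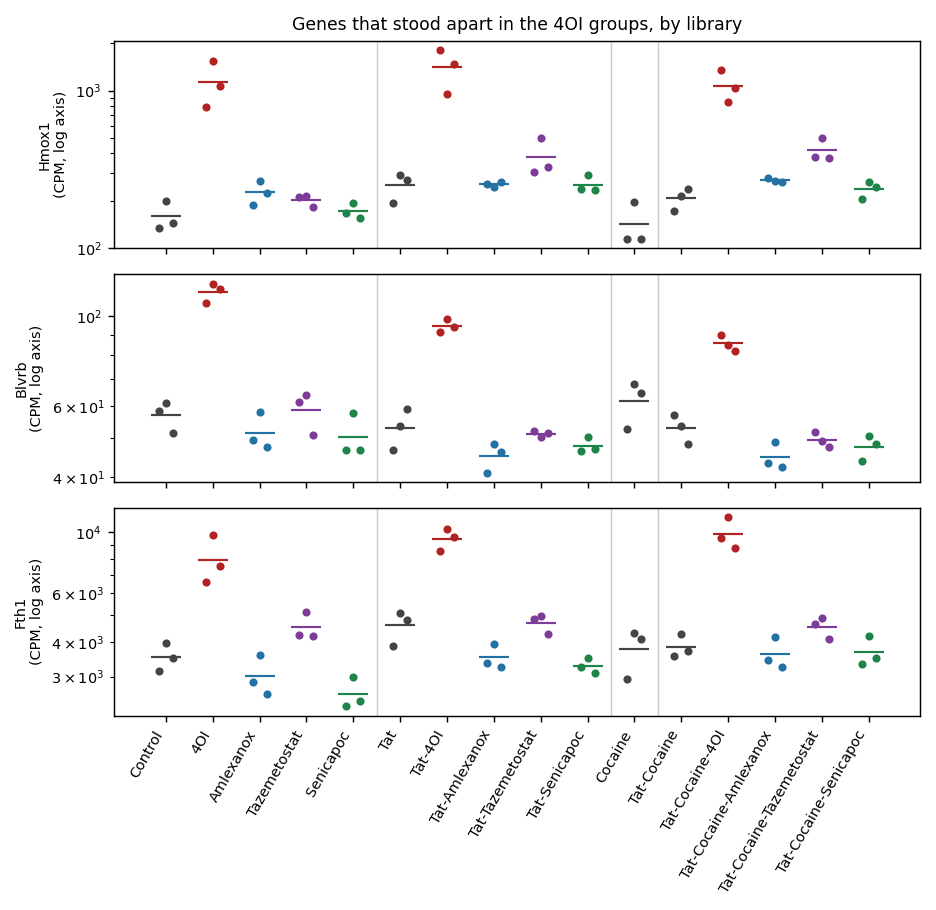
Level of Hmox1, Blvrb and Fth1 (CPM, log axis) in each of the 16 groups. Points are libraries, the bar is the group mean, colour marks the small molecule, and vertical lines separate the groups without Tat or cocaine, with Tat, with cocaine alone and with both. The 9 libraries with 4OI lie above all 39 others for each gene, for Hmox1 at 793 to 1806 CPM against 115 to 500 CPM.

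Ordered by group mean, Hmox1 ran from 1412 ± 429 CPM in Tat-4OI (mean ± SD, n = 3) through 1138 ± 379 CPM with 4OI alone and 1076 ± 254 CPM with Tat, cocaine and 4OI to 419 ± 69.4 CPM in Tat-Cocaine-Tazemetostat. The groups with 4OI overlapped one another and stood clear of the rest. At the lower end were Control (160 ± 35.4 CPM) and Cocaine (142 ± 46.9 CPM), which overlapped. The highest group mean was 9.94 times the lowest. Over the 3 backgrounds together the 4OI difference was 2.53 (95% interval 2.26 to 2.80, adjusted p = 1.15e-16), where 22.8% of all genes were called. An exact two-sided permutation test within backgrounds gave p = 0.00025, the smallest its 8000 assignments allow (0.00225 after Benjamini-Hochberg adjustment over 36 tests). With 3 libraries against 3, the same test in a single background could not have gone below 0.1.

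Tat also changed Hmox1. The Tat libraries at 194 to 291 CPM overlapped the Control libraries at 135 to 201 CPM, and the difference was 0.65 (SE 0.231, adjusted p = 0.0398, limma), with 21.3% of all genes called (68.5% of them higher, or 54.6% under quantile scaling) and 3 of the 9 tested genes among them, 2 higher (14.6% of all genes) and 1 lower (6.70%). Averaged over the 5 pairs of groups that differ by Tat alone, the difference was 0.51 (0.30 to 0.72, adjusted p = 9.12e-05), with 56.5% of all genes called. In the single-background test against Control, the call was lost without the filter on low values, under median-ratio or quantile scaling, in a fit of the compared groups alone and in a fit of 21 libraries. Over the settings its adjusted p ran from 0.0214 to 0.139, and it was also lost without Control library 1 or 3 (0.175 and 0.103) or Tat library 2 or 3 (0.194 and 0.0939).

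Hmox1 was higher in Tat-Cocaine-Tazemetostat than in Tat-Cocaine. The Tat-Cocaine-Tazemetostat libraries were at 381, 499 and 376 CPM, all above the 172 to 237 CPM of Tat-Cocaine. The difference was 1.01 (SE 0.231, adjusted p = 0.00638), in a comparison where 28.7% of all genes (15.2% higher and 13.4% lower) and 4 of the 9 (3 higher and 1 lower) were called. The call was lost without the first Tat-Cocaine library (adjusted p = 0.0565) or the second Tat-Cocaine-Tazemetostat library (adjusted p = 0.0618). In Tazemetostat against Control (log2 0.36, adjusted p = 0.999) and Tat-Tazemetostat against Tat (log2 0.56, adjusted p = 0.785) it did not pass. Over the 3 backgrounds the Tazemetostat difference was 0.64 (0.37 to 0.91, adjusted p = 0.00427, 11.4% of all genes called), and the exact permutation p was 0.00075 (0.0054 adjusted over the 36 tests). The tests of whether the Tazemetostat effect differed between backgrounds called none of the 9 genes. Cell type markers moved in the same comparison: 5 of 10 microglial markers were higher in Tat-Cocaine-Tazemetostat (summed level 2611 to 4205 CPM against 1108 to 1859 CPM). Of the 7 neuronal markers, 6 were lower (792 to 1198 CPM against 1764 to 2317 CPM). Their part in the Hmox1 difference was not tested.

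Hmox2, the constitutive heme oxygenase, had a narrow range, with group means of 46.9 to 59.8 CPM and no break between neighbouring groups. The difference with 4OI over the 3 backgrounds was 0.04 (-0.11 to 0.19). It was called once, as 0.14 lower (-0.14, adjusted p = 0.0470) with Tat over the 5 backgrounds, and this call was lost without any one of 18 of the 30 libraries (adjusted p = 0.0506 to 0.0906).

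Blvra and Blvrb encode the biliverdin reductases, and their values differed in pattern. Blvrb was at 58.3, 60.9 and 51.5 CPM in Control and at 108, 120 and 116 CPM in 4OI. It was at 46.6, 53.5 and 59.1 CPM in Tat and at 91.5, 98.2 and 94.0 CPM in Tat-4OI. It was at 57.1, 53.6 and 48.3 CPM in Tat-Cocaine and at 90.0, 84.7 and 82.1 CPM in Tat-Cocaine-4OI. Every 4OI library exceeded every other library (82.1 to 120 CPM against 41.1 to 68.1 CPM), and the untreated, Tat and Tat-Cocaine groups with 4OI ranked in that order without overlapping. The log2 differences were 1.01 (0.81 to 1.21, adjusted p = 6.92e-09), 0.83 (adjusted p = 4.01e-07) and 0.69 (adjusted p = 1.41e-05) in untreated, Tat and Tat-Cocaine cultures. The test of the difference between backgrounds called neither of these contrasts against the untreated one for Blvrb. Blvrb was also lower with Amlexanox over the 3 backgrounds (-0.20, -0.32 to -0.08, adjusted p = 0.0263, 7.99% of all genes called) and with Tat over the 5 (-0.16, adjusted p = 0.00248). The Amlexanox call was lost without any one of 7 of the 18 libraries (adjusted p = 0.0568 to 0.0739). Blvra group means lay between 20.4 and 27.4 CPM, and its 4OI difference over the 3 backgrounds was -0.04 (-0.16 to 0.09).

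Promoter windows were searched for the antioxidant response element, the site that NRF2 binds, written TGACNNNGC and read on both strands. RefSeq (GRCr8) gave windows of 300 bases, 250 before to 50 after a start, for 7 of the 10 genes, 9 windows in all. No window was matched for Hmox1, Fth1 or Ftl1. The letters occurred in 2 of the 9 windows and in 12.1% of all 33469 promoter windows of that table. The matches lay in Blvra and Hmox2, which did not pass the test with 4OI. They are shown 5′ to 3′ on the gene's strand with the matching bases in capitals, the Blvra site at chr3:134802755-134802783 (+) and the Hmox2 site at chr10:11337689-11337717 (-).
Blvra: ttaaatatttGCTGGGTCAccgaagtgga
Hmox2: gtcttggaagGCAGTGTCAgcttggccag
The 250 bases before the Blvrb start (chr1:91866008-91866257, +, 60.4% G and C) are shown because Blvrb rose with 4OI. They hold no match to these letters, which says only that the letters are not in this window.
Blvrb: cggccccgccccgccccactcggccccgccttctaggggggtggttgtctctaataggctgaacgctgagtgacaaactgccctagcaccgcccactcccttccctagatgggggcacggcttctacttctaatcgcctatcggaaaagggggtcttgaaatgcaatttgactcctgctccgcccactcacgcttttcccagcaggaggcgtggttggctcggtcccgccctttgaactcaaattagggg

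Ferritin is built from heavy (Fth1) and light (Ftl1) chains. Fth1 was at 3139, 3967 and 3504 CPM in Control and at 6573, 9732 and 7510 CPM in 4OI. It was at 3873, 5110 and 4795 CPM in Tat and at 8531, 10245 and 9606 CPM in Tat-4OI. It was at 3564, 4268 and 3724 CPM in Tat-Cocaine and at 9529, 11299 and 8769 CPM in Tat-Cocaine-4OI. The 9 libraries with 4OI stood above the 2349 to 5156 CPM of all others. The differences were 1.15 (SE 0.167, adjusted p = 1.36e-05), 1.05 (adjusted p = 4.19e-05) and 1.35 (adjusted p = 6.42e-07) in the 3 backgrounds. Under quantile scaling the difference in untreated cultures was 0.67 and still called. When only the compared groups were fitted, the calls in untreated (adjusted p = 0.0807) and Tat-Cocaine cultures (adjusted p = 0.0641) were lost, while leaving out any library lost neither. The Fth1 row shared its reads with its neighbour Best1. The ratio of Best1 to Fth1 was 1.001 to 1.003 in all 48 libraries, so the reads of these genes cannot be told apart in this table and the Fth1 level is uncertain to that extent. Fth1 was higher with Tat over the 5 backgrounds (0.25, adjusted p = 0.00443), but under quantile scaling the sign turned (-0.015, adjusted p = 0.857).

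In Senicapoc cultures Fth1 was at 2349, 2996 and 2444 CPM, all below the 3139 to 3967 CPM of Control. That difference was -0.45 (-0.79 to -0.11, adjusted p = 0.484). Over the 3 backgrounds it was -0.33 (-0.53 to -0.14, adjusted p = 0.0722, limma, 1.16% of all genes called). The exact permutation test gave p = 0.0035 for the same difference (0.018 adjusted over the 36 tests).

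Ftl1 had 10.5, 7 and 13 reads in the Control libraries and 39.5, 41 and 31 reads in the 4OI libraries. The 4OI libraries lay above the Control libraries, and the differences were 1.09 (SE 0.206, adjusted p = 0.000955), 0.62 (adjusted p = 0.0374) and 0.68 (adjusted p = 0.0363) in untreated, Tat and Tat-Cocaine cultures. With Tazemetostat over the 3 backgrounds Ftl1 was 0.59 higher (0.35 to 0.83, adjusted p = 0.00374), and in Tat-Cocaine cultures it was 0.66 higher (adjusted p = 0.0204). At this depth the Tat and Tat-Cocaine calls rested on few reads: each was lost without any one of 5 (4OI) or 4 (Tazemetostat) of the 6 libraries compared, with adjusted p up to 0.163 for 4OI in Tat cultures, 0.154 for 4OI in Tat-Cocaine cultures and 0.102 for Tazemetostat. Few of the light-chain reads were counted under this symbol. RefSeq lists Ftl1 as a synonym of LOC100360087, a gene chosen after its values were seen, which was at 479 to 2042 CPM. Its group mean was 655 ± 101 CPM in Control and 1751 ± 266 CPM in 4OI, a difference of 1.42 (adjusted p = 2.89e-05). It rose with 4OI in Tat cultures from 736 ± 128 to 1357 ± 81.8 CPM (0.90, adjusted p = 0.00406). In Tat-Cocaine cultures it rose from 627 ± 78.3 to 1404 ± 414 CPM (1.13, adjusted p = 0.000644), a call lost when only the compared groups were fitted (adjusted p = 0.0982). With Tazemetostat it rose in Tat-Cocaine cultures to 1399 ± 183 CPM (1.16, adjusted p = 0.0031) and over the 3 backgrounds (0.80, adjusted p = 0.000305). In direct comparison, 4OI was higher than Tazemetostat in untreated cultures (0.75, adjusted p = 0.0465) but did not pass in Tat (0.32, -0.12 to 0.76) or Tat-Cocaine cultures (-0.03, -0.46 to 0.41). Near-identical ferritin copies in the genome can split reads between rows, so the 2 rows are both uncertain.

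The 4OI groups were also compared directly with the other compounds in the same background, in 9 comparisons. The share of all genes called was 15.4%, 13.7% and 8.86% against Amlexanox, 2.98%, 16.1% and 24.4% against Tazemetostat, and 3.13%, 8.43% and 12.5% against Senicapoc, in untreated, Tat and Tat-Cocaine cultures. The doses differ between compounds and no structural series is involved. Hmox1 was higher with 4OI in all 9 (log2 1.35 to 2.67), as were Blvrb (0.78 to 1.19) and Fth1 (0.79 to 1.60), and Ftl1 was higher in 4. Over the 3 backgrounds 7 of 10 microglial and 4 of 5 border macrophage markers were lower with 4OI, where 22.8% of all genes were called. By Iba1 staining, the authors describe more microglial cells with 4OI in control and Tat cultures. They describe fewer in Tat-Cocaine cultures, a difference that was not significant. Microglial markers summed to 1130 to 2028 CPM in Control and 686 to 1708 CPM in 4OI, which overlapped. They summed to 1108 to 1859 CPM in Tat-Cocaine and 392 to 1384 CPM in Tat-Cocaine-4OI, which overlapped too. In Tat they summed to 1519 to 2763 CPM, above the 601 to 1460 CPM of Tat-4OI. Border macrophage markers summed to 467 to 522 CPM in Control and 266 to 315 CPM in 4OI, and to 204 to 421 CPM in Tat-Cocaine and 30.4 to 145 CPM in Tat-Cocaine-4OI. None of the 15 single markers of these cells was called in 4OI against Control, although the border macrophage sums did not overlap. The part of these cells in the 4OI differences was not tested.

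**Figure D2:**
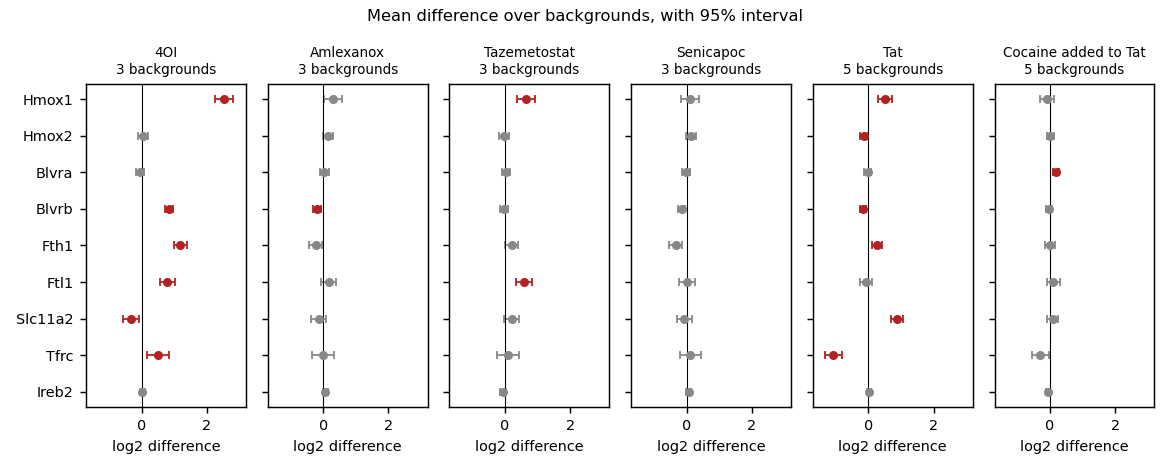
Log2 difference with its 95% interval for the 9 tested genes and 6 pooled comparisons: each of the 4 small molecules over 3 backgrounds, Tat over 5, and cocaine added to Tat over 5. Red marks an adjusted p below 0.05. Hmox1 with 4OI has the largest difference (2.53), Tat has Slc11a2 at 0.88 and Tfrc at -1.08, and the Senicapoc panel has no call.

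Slc11a2 and Tfrc, the iron importers of the list, differed with Tat. Slc11a2 was at 73.1, 87.4 and 89.0 CPM in Control and at 218, 220 and 161 CPM in Tat, so every Tat library was above every Control library. The difference was 1.25 (2.37-fold, SE 0.200, adjusted p = 1.97e-05, limma). In Tat-Cocaine the values were 109, 148 and 205 CPM and the difference from Control was 0.84 (adjusted p = 0.0032), which was lost without the third Tat-Cocaine library (adjusted p = 0.0551). Over the 48 libraries, the 30 with Tat were at 89.1 to 257 CPM and the 18 without it at 73.1 to 97.5 CPM, with a small overlap. Over the 5 backgrounds the Tat difference was 0.88 (0.70 to 1.07, adjusted p = 4.39e-10).

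Tfrc went the other way. It was at 420, 258 and 183 CPM in Control and at 86.5, 112 and 186 CPM in Tat, which overlapped in 1 library of each. The difference was -1.15 (SE 0.287, adjusted p = 0.00364) and was lost without the first Control library (adjusted p = 0.0636). Tat-Cocaine, at 177, 160 and 103 CPM, lay below Control (-0.92, adjusted p = 0.0269), a call lost without the first Control or the third Tat-Cocaine library (adjusted p = 0.215 and 0.171). Tat-Cocaine against Control called 2 of the 9 genes, 1 higher and 1 lower, and 14.9% of all genes (8.63% higher and 6.30% lower). The pooled Tat difference was -1.08 (-1.34 to -0.82, adjusted p = 1.48e-08). In the same pairs, Amlexanox went from 369, 363 and 445 CPM to 105, 108 and 149 CPM with Tat (-1.71, adjusted p = 6.26e-05, 39.6% of all genes called), and Senicapoc from 419, 437 and 327 CPM to 246, 129 and 111 CPM (-1.36, adjusted p = 0.00126, 16% of all genes called). Tazemetostat went from 334, 275 and 210 CPM to 161, 152 and 173 CPM, without overlap, and did not pass (-0.73, -1.31 to -0.15, adjusted p = 0.0786). Microglial markers moved in Tat against Control too, with 3 of 10 higher (summed level 1519 to 2763 CPM against 1130 to 2028 CPM), and 3 of 5 border macrophage markers were lower. Their part in the Slc11a2 and Tfrc differences was not tested.

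**Figure D3:**
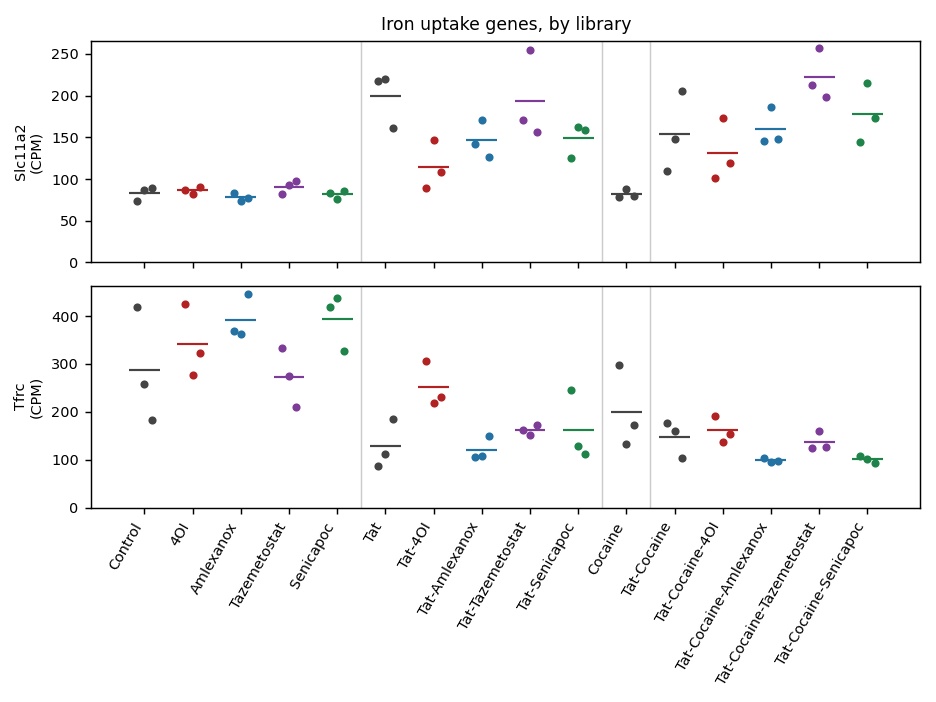
Level of Slc11a2 and Tfrc (CPM, axis from 0) by group, with points for libraries, bars for group means, colour for the small molecule and vertical lines between backgrounds. Slc11a2 is at 73.1 to 97.5 CPM without Tat and 89.1 to 257 CPM with it, while Tfrc is at 133 to 445 CPM without Tat and 86.5 to 306 CPM with it.

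In Tat-4OI the values of both importers moved towards those of Control. Slc11a2 was at 89.1, 146 and 108 CPM, all below the Tat libraries (-0.81, adjusted p = 0.005), and Tfrc at 306, 218 and 231 CPM, all above them (1.03, adjusted p = 0.0132). The Slc11a2 call was lost without the first Tat-4OI library (adjusted p = 0.0635). The Tfrc call was lost without the first or second Tat library (0.0941 and 0.0662) or the first Tat-4OI library (0.0901). Tat-4OI against 4OI gave no call among the listed genes, with Slc11a2 at 0.38 (-0.03 to 0.78) and Tfrc at -0.43 (-1.01 to 0.15), where 5.18% of all genes were called. The test of whether the 4OI effect on Slc11a2 differed between Tat and untreated cultures gave -0.87 (-1.44 to -0.30, adjusted p = 0.17). In Tat-Cocaine-4OI neither gene was called against Tat-Cocaine, with Slc11a2 at 101, 173 and 119 CPM and Tfrc at 191, 138 and 154 CPM. Over the 3 backgrounds, limma called Slc11a2 lower (-0.33, adjusted p = 0.0371) and Tfrc higher (0.50, adjusted p = 0.0257) with 4OI. The first call was lost without any one of 12 of the 18 libraries and the second without any one of 6, with adjusted p up to 0.115 and 0.0749. The exact permutation test adjusted over 36 tests did not (0.17 and 0.099).

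The 250 bases before the starts of these genes are shown because they carry the Tat differences. None has the antioxidant response element letters. Slc11a2 has 2 starts in RefSeq (GRCr8), at chr7:133417789-133418038 (-, 68.0% G and C) and chr7:133418940-133419189 (-, 43.6%), and the Tfrc window is chr11:81690319-81690568 (-, 64.8%).
Slc11a2 start A: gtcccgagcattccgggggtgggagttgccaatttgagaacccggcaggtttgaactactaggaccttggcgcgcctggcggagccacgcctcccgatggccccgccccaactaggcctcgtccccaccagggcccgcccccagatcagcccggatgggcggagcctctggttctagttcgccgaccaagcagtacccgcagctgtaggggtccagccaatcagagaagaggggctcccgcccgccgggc
Slc11a2 start B: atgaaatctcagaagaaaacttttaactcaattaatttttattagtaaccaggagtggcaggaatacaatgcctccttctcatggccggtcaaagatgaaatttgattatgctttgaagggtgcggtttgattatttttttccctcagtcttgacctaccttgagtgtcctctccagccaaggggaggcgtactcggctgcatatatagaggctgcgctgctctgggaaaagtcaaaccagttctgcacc
Tfrc: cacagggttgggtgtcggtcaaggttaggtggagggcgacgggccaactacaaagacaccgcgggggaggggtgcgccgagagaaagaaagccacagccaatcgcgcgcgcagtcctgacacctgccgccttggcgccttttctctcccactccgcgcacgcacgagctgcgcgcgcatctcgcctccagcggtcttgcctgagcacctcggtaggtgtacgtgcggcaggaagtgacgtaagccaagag

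The iron-responsive element loop, written CAGTGN and read on the transcript strand, occurred in 2 of the 9 windows and in 34.9% of all windows. Those 2 windows were of Blvra and Hmox2, where in Hmox2 one of the matches overlaps the antioxidant response element letters printed above. Both Hmox2 matches lay before the start (bases -225 and -94) and the Blvra match after it (base 42). The search read the loop letters without a stem. The windows hold at most 50 bases after a start and none is of Fth1 or Ftl1. Such a search cannot show where these elements lie in the messages, and nothing is drawn from it.

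Ireb2, the iron regulatory protein, had group means from 48.4 to 58.1 CPM, with neighbours overlapping throughout. It was 0.23 higher in Tat-4OI than in Tat (60.5, 58.8 and 53.3 CPM against 47.1, 47.8 and 51.6 CPM, adjusted p = 0.0223). It was lower in Tat-Cocaine-Tazemetostat than in Tat-Cocaine (48.8, 46.6 and 49.9 CPM against 59.0, 55.0 and 51.8 CPM, -0.19, adjusted p = 0.0448). Neither pair of groups overlapped, but each call was lost without most single libraries, 4 and 5 of 6, with adjusted p up to 0.128 and 0.223. Blvra had its only pooled call with cocaine added to Tat over 5 backgrounds (0.19, 0.09 to 0.29, adjusted p = 0.0192, 4.55% of all genes called), although Tat-Cocaine against Tat alone called none of the 9 genes (0.0189% of all genes).

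**Figure D4:**
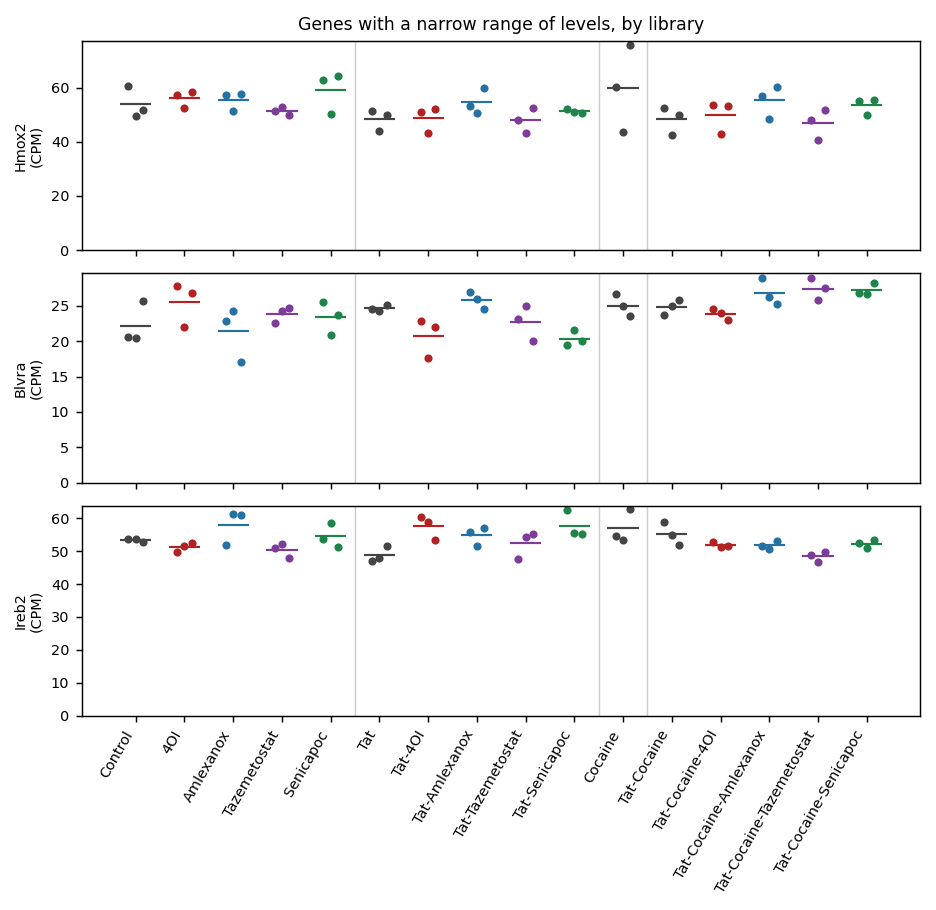
Level of Hmox2, Blvra and Ireb2 (CPM, axis from 0) by group, drawn as points for libraries and bars for means. Group means span 46.9 to 59.8 CPM for Hmox2, 20.4 to 27.4 CPM for Blvra and 48.4 to 58.1 CPM for Ireb2, with no group standing apart from its neighbours.

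The other comparisons gave few calls. Cocaine against Control called none of the 9 genes by limma (0.201% of all genes), and none had an unadjusted p below 0.05 (12.6% of all genes). The Cocaine libraries had Hmox1 at 115, 196 and 115 CPM, with a difference of -0.20 (-0.67 to 0.27). Tat-Cocaine against Tat had 1 gene at that unadjusted level, Ireb2 (8.16% of all genes). Amlexanox called none in untreated (11.4% of all genes), Tat (0.837%) or Tat-Cocaine cultures (0.925%), and 1, 4 and 1 of the 9 had an unadjusted p below 0.05 (26.1%, 12.5% and 17.8% of all genes). Senicapoc called none (0%, 0.409% and 0.0441% of all genes), with 1, 4 and 0 at the unadjusted level (8.67%, 18.3% and 15.5%). Tazemetostat called none in untreated and Tat cultures (0% of all genes in both), with 2 and 2 at the unadjusted level (3.62% and 5.36%). In Tat-Cocaine cultures it also raised Slc11a2 (213, 257 and 198 CPM against 109, 148 and 205 CPM, overlapping, 0.57, adjusted p = 0.0336), a call lost without any one of 4 of the 6 libraries (adjusted p = 0.0593 to 0.264). Tat raised Slc11a2 within Amlexanox (0.89), Tazemetostat (1.06) and Senicapoc cultures (0.85) as well, with 16.1% of all genes called in the Tazemetostat pair. The 8 tests of whether a compound effect differed between backgrounds called no listed gene. They called 0.497% and 0.113% of all genes for 4OI in Tat and Tat-Cocaine against untreated cultures, 1.84% and 9.32% for Amlexanox, and 0% for Tazemetostat and Senicapoc.

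A wider list of 55 heme and iron genes, of which 48 were tested, put these members among their pathways. The list was chosen with earlier results of these data known, so its counts are a description and not a test of the pathway. Tat against Control called 18 higher and 2 lower, where 14.6% of all genes were higher and 6.70% lower, with a median of 0.21 against 0.0075 for all genes. Of the 13 tested genes of iron uptake, reduction and export 9 were higher, including Lcn2, a siderophore-binding protein (148 to 11592 CPM, 6.82, adjusted p = 6.84e-08), and Steap4, a metalloreductase (1.62 to 183 CPM, 6.33). Tfr2, the second transferrin receptor, rose as well (1.32 to 16.97 CPM, 3.24). The 2 lower genes were Cd163, the haptoglobin-haemoglobin scavenger receptor and a border macrophage marker (48.1 to 7.28 CPM, -2.86), and Abcb6, a porphyrin transporter (-0.30). No heme synthesis gene of 8 was called. Tat-Cocaine against Control called 14 higher and 1 lower, where 8.63% and 6.30% of all genes were.

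4OI against Control called 5 of the 48 higher and none lower, where 2.47% and 0.686% of all genes were. Among them were Pgrmc1, a heme-binding membrane protein (311 to 608 CPM, 0.96, adjusted p = 8.7e-09), Epas1, a hypoxia-inducible factor subunit (256 to 439 CPM, 0.78), and Slc48a1, a heme transporter (154 to 242 CPM, 0.65). Pgrmc1 and Slc48a1 were higher with 4OI in Tat cultures (1.01 and 0.80) and Tat-Cocaine cultures (1.03 and 0.72) too. In Tat cultures 4OI called 3 higher and 8 lower (6.10% and 9.48% of all genes), among the latter Steap4 (183 to 17.2 CPM, -3.63) and the haemoglobin-binding protein Hp (-2.38). In Tat-Cocaine cultures it called 5 higher and 3 lower (4.07% and 3.29% of all genes), among the latter Cd163, from a mean of 20.7 to 0.114 CPM. Cd163 counts among the border macrophage markers that were lower there, and their part was not tested. Tat-Cocaine-Tazemetostat against Tat-Cocaine called 14 higher and 2 lower of the 48, where 15.2% and 13.4% of all genes were. Amlexanox against Control called 1 higher and 4 lower of the 48, a share near the 11.4% of all genes called, and the largest difference was that of Bmp6, a ligand that induces hepcidin (180 to 52.2 CPM, -2.02, adjusted p = 0.000369).

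**Figure D5:**
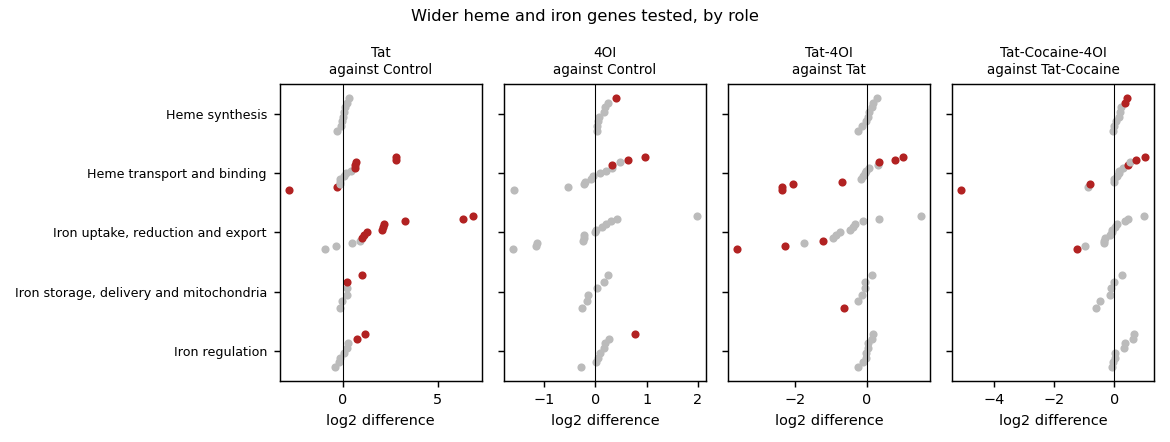
Log2 difference of the tested heme and iron genes, arranged by role, in 4 comparisons, with red for an adjusted p below 0.05. Tat against Control has 18 higher and 2 lower, with 9 of the higher ones in iron uptake, reduction and export, and 4OI against Control has 5 higher and none lower.

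The genes whose levels most resembled those of the members over the 48 libraries are given as a description (Pearson r of log2 levels), since all libraries share the treatments. Closest to Hmox1 were Taldo1 (0.950), Gsr (0.929) and Tkt (0.897). Closest to Blvrb were Cat (0.976), Gstp1 (0.945) and Osgin1 (0.943), and closest to Slc11a2 were Acod1 (0.981), Vasp (0.979) and Tnip1 (0.971). Tfrc was closest to Habp4 (0.893), and Fth1, apart from Best1, to AABR07054189.1 (0.955) and Tkt (0.943). Ftl1 was closest to LOC100360087 (0.870), AC128792.1 (0.866) and AC128792.2 (0.861). AC128792.1 and AC128792.2 were also called higher with 4OI in all 3 backgrounds (70.5 to 197 and 52.8 to 157 CPM in untreated cultures). Whether these rows share reads with Ftl1 was not tested. The nearest genes to Hmox2 (Pkp4, 0.863), Blvra (Spg21, 0.815) and Ireb2 (Aff4, 0.743) were less alike. Among the members Hmox1 correlated with Fth1 at 0.884, with Blvrb at 0.762 and with Ftl1 at 0.711.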

How the data were processed

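RNA of 48 libraries was prepared with a stranded kit and sequenced as paired reads. The authors aligned the reads with STAR, counted them per gene with featureCounts and scaled them with TMM in edgeR. The methods name the build Rnor_6.0, whereas the submitters' processing notes list mRatBN7.2 and hg38, Trim Galore 0.4.5, STAR 2.7.2, SAMtools 1.5 and Subread 1.5.3. No gene coordinates of the files' build are given here, and promoter windows are from RefSeq (GRCr8). The deposited signal is CPM on that TMM scale, so library columns sum to 930399 to 1046892. Whole reads were recovered for 84.8% to 86.8% of values under 200 reads (tolerance 0.02 read) and multiples of 0.5 read for 98.3% to 99.1%, so no count test was run. Columns of the authors' group means and of their comparisons (fold changes, p-values) were not used, and all per-library columns were mapped to samples.

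Of 30211 genes, 6162 were at 0 in every library and 15890 were tested. limma 3.58.1 (R 4.3.3, eBayes with trend) was fitted to log2(CPM + 0.5), with 1 mean per group, 32 residual degrees of freedom and a Benjamini-Hochberg threshold of 0.05. It was tested on simulated data. Exact permutation tests used numpy 2.4.6 and sequence features were read with Python 3.11.15. The same-numbered libraries of 2 groups were taken as pairs where all 3 correlations of their deviations from the group means exceeded 0.1. This held for 5 of 16 comparisons, Tat-Cocaine, 4OI, Tazemetostat and Senicapoc against Control and Tat-Amlexanox against Tat. The tests reported above did not use these pairs. The replicate number entered only among the alternatives, as the block and in leaving out the libraries numbered 2. The latter was chosen after seeing the data. All 10 genes were named. Up to 3 genes per direction with the largest differences were named from the wider list. Members and lists were chosen with earlier results of these data known. Alternatives were other pseudocounts, filters, scalings, sets of libraries, a fit without trend, a replicate block and leaving out each library. Samples were grouped by their labels. A result on 1 gene of the wider list is not reported here.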

Additional observations from a re-analysis of the deposited data

Results flagged for a closer look

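No listed gene had an effect of a compound that differed between backgrounds by the test of that difference, but genes of the wider heme and iron list did, and 6 of them are given here. The 4OI effect on Tfr2, the second transferrin receptor, differed by -2.08 between Tat and untreated cultures (SE 0.410, adjusted p = 0.00837, limma). It was -0.22 in untreated and -2.31 in Tat cultures, in a test that called 0.497% of all genes. The Tfr2 level was low in Control, and the 0.5 CPM added before taking logs limits how far it can fall there. The part of that limit in the difference was not tested.

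The Amlexanox effect on Bmp6, the ligand that induces hepcidin, was -2.02 in untreated, 0.01 in Tat and 0.43 in Tat-Cocaine cultures. It differed from the untreated effect by 2.04 in Tat (adjusted p = 0.0300, 1.84% of all genes called) and by 2.45 in Tat-Cocaine cultures (adjusted p = 0.0060, 9.32% of all genes called). In the latter test the Amlexanox effect also differed for the heme synthesis genes Urod (0.48, adjusted p = 0.0476) and Fech (0.46, adjusted p = 0.0438). It differed as well for Abcb6, a porphyrin transporter (0.48, adjusted p = 0.0184), and Iscu, the iron-sulfur cluster scaffold (0.67, adjusted p = 0.0106). A list of this size would hold a few calls at a share of 9.32%. These calls are therefore not read as a result about heme and iron genes.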

How the results depend on the processing

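The first tallies cover the listed genes and LOC100360087, which is not a listed gene and was chosen after its values were seen. Over 46 called values, 431 values under other settings kept direction and call in 395, lost the call in 35 and changed sign in 1. The sign change was that of Fth1 with Tat over 5 backgrounds under quantile scaling (-0.015, adjusted p = 0.857). Leaving out a library kept 492 of 576 calls and reversed none. Counts of listed genes called moved by more than 1.5 times as follows. Without the filter on low values, Tat-Cocaine-Tazemetostat against Tat-Cocaine called 2 in place of 4. With a filter of 2 CPM, Tazemetostat over 3 backgrounds called 1 in place of 2, because Ftl1 was not tested. With compared groups alone, the counts were 1 for Tat against Control, 0 for Tat-Cocaine against Control, 2 for 4OI against Control, 3 for Tat-4OI, 2 for Tat-Cocaine-4OI and 1 for Tat-Cocaine-Tazemetostat against their matched groups, and 0 for Amlexanox over 3 backgrounds. With the 21 libraries of 7 groups, Tat-Cocaine against Control gave 1 and Tat-4OI against Tat 4. An alternative chosen after seeing the data, without the libraries numbered 2, gave 1 for Tat-Cocaine against Control, 4 for Tat-4OI, 1 for Tat-Cocaine-Tazemetostat, 1 for Tazemetostat over 3 backgrounds and 0 for cocaine added to Tat. The cause was not tested. The share of all genes called under each of these settings is not given here. The moves in these counts are therefore not read as particular to the listed genes.

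The replicate block added Fth1, giving 1 call for Tat-Senicapoc against Tat, 2 for Amlexanox and 1 for Senicapoc over 3 backgrounds. For Senicapoc the adjusted p of Fth1 was 0.00338 under the block. Fth1 was also gained in Tat against Control (adjusted p = 0.0118) and with Tazemetostat over 3 backgrounds (adjusted p = 0.0201), which made their counts 4 and 3. The block changed no other call of a listed gene in these comparisons. Outside the 5 comparisons named above, the same-numbered libraries did not meet the rule for pairs. The numbers still carried a pattern: 220 of 360 same-number pairs correlated above 0.1 (median 0.18) and 30 of 48 libraries were closest to their own number. Fth1 was highest in the library numbered 2 in every group. The mean log2 deviation of these libraries from their group means was 0.18 for Fth1, 0.15 for Slc11a2, 0.14 for Hmox1 and -0.14 for Hmox2. What the number stands for was not tested. Without any library in turn, counts ran from 1 to 3 for Tat against Control, 0 to 2 for Tat-Cocaine against Control, 3 to 6 for Tat-4OI, 3 to 4 for Tat-Cocaine-4OI and 0 to 4 for Tat-Cocaine-Tazemetostat against their matched groups. They ran from 4 to 6 for 4OI, 0 to 1 for Amlexanox and 0 to 1 for Senicapoc over 3 backgrounds, and from 5 to 6 for Tat over 5. Counts of the remaining comparisons did not move. With all libraries, Tat over 5 called 56.5% of all genes. The shares of all genes without each library are not given here, so these ranges are not particular to the listed genes either. Where a group was left with 2 libraries, its spread was taken from the shared fit. The few reads counted under Ftl1 and Slc40a1 limit what their values can show, and whether depth or read assignment sets them was not tested.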
